A study of Mus musculus with 4 samples.

Results

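The 5 guide strands of the miR-30 family, mmu-miR-30a-5p, mmu-miR-30b-5p, mmu-miR-30c-5p, mmu-miR-30d-5p and mmu-miR-30e-5p (written below without the species prefix), were followed through the chimeric eCLIP-seq of overloaded mouse plantaris. In this assay Ago2, the Argonaute protein that holds a miRNA on its target, was crosslinked and immunoprecipitated. The miRNA was ligated to the RNA fragment beneath it, so a chimeric read names both partners. The methods also describe a miRNA-specific step that amplified the cDNA with a primer for miR-1. Its bearing on the shares and ranks of other miRNAs, miR-30 included, was not tested. The members were chosen by name from each library and were 5 of 560 named miRNAs. They held 2341 of 20754 distinct peaks in the control library and 2539 of 21872 in the mimic library.

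Both libraries came from male C57BL/6J mice aged 5 months, 10 days after bilateral synergist ablation (mechanical overload, MOV). The left plantaris received a control lentivirus with a scrambled insert and the right plantaris a lentivirus encoding a miR-1a-3p mimic, both carrying a TurboGFP reporter behind a CMV promoter. Each group was 1 library, so no test between the conditions was possible, and every difference describes this pair of libraries. The intervals in brackets are 95% intervals that cover counting error only.

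The miR-30 family is one of the broadly expressed miRNA families of muscle, heart and kidney. Its members share the seed, the bases near the 5′ end that choose targets by pairing, and differ mainly toward the 3′ end, where extra pairing can strengthen a site. Among the targets assigned to the family are genes of matrix production, calcium handling, ubiquitin ligation and the miRNA machinery itself.

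RefSeq (GRCm38.p6) gave the mature sequence of miR-30a-5p at chr1:23272274-23272295 on the plus strand, of miR-30c-5p at chr1:23291714-23291736 on the plus strand and at chr4:120769584-120769606 on the minus strand, and of miR-30e-5p at chr4:120772660-120772681 on the minus strand. They are shown because the member found at a site is compared with its sequence further on. Capitals mark the seed, bases 2 to 8.
miR-30a-5p: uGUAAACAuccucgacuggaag
miR-30c-5p: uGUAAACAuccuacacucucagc
miR-30e-5p: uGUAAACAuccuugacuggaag
The sequences were alike over their first 12 bases. miR-30a-5p and miR-30e-5p matched at 21 of 22 aligned bases, whereas miR-30c-5p matched each of them at 17 of 22. The letters that pair with the seed in a target are TGTTTAC.

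The control library held 232408 chimeric reads in its peaks and the mimic library 259207, a ratio of 1.115. All 10 markers of muscle fibres were found in both libraries, with 38167 and 49789 reads of all miRNAs. The 7 fibroblast markers were also found in both libraries, with 4839 and 4676 reads. Markers of other cells were scarce, at most 142 reads for any list, and Vwf, Cd68, Pax7, Myf5, Calcr and Cnn1 had no peak. In whole muscle, fewer cells of a type and less RNA per cell cannot be told apart.

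miR-30 was carried by a steady share of the chimeric reads. The 5 members summed to 6143 reads in the control (5990 to 6299) and 6693 reads with the mimic (6534 to 6855), which was 2.64% and 2.58% of each library. The ratio of mimic to control was 1.09 (1.05 to 1.13) as counted and 0.977 (0.943 to 1.011) after division by the library totals, so the direction turned with the scaling. Among 105 seed families with at least 50 peaks in each library, 45 had a higher ratio and 59 a lower one. By reads the family ranked 10 in the control and 8 with the mimic.

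miR-30c-5p was the most frequent member in both libraries. It gave 1986 reads in the control (1900 to 2075) and 2212 with the mimic (2121 to 2306), about 32.3% and 33.1% of the family. miR-30a-5p gave 1223 and 1402 reads and miR-30b-5p gave 1229 and 1265, with intervals that overlapped in both libraries. miR-30d-5p (852 and 877 reads) and miR-30e-5p (852 and 936 reads) were the least frequent and could not be ordered in either library, since their intervals overlapped. The largest ratio among the members was that of miR-30a-5p, 1.15 (1.06 to 1.24), and after scaling the 5 ratios lay between 0.922 and 1.03. The opposite strands of the same hairpins, the 3p arms, summed to 80.3 and 94.7 reads.

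**Figure D1:**
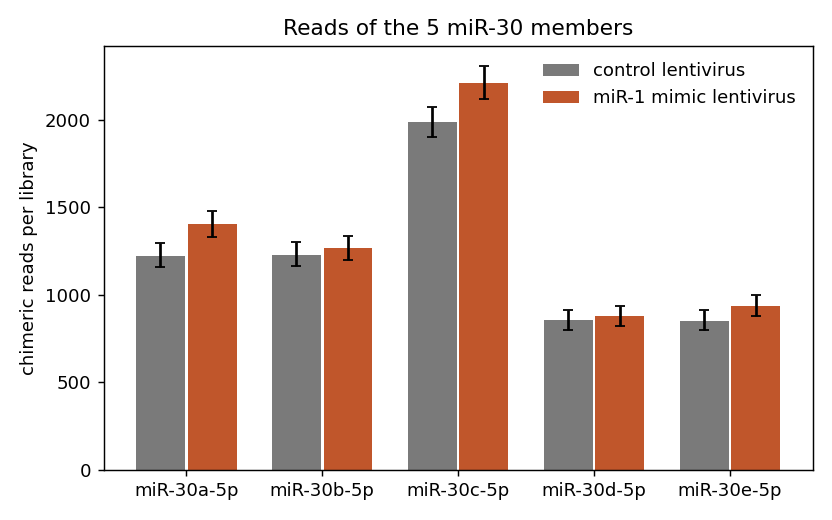
Chimeric reads of each miR-30 member (vertical axis, reads per library) in the control and mimic libraries, with exact Poisson intervals as error bars. miR-30c-5p stood highest in both libraries, at 1986 and 2212 reads, and miR-30d-5p and miR-30e-5p stood lowest, between 852 and 936 reads.

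Most miR-30 peaks were faint and a small number carried much of the signal. A peak held under 1 family read in 50.8% of control peaks and 51.0% of mimic peaks, and values were often fractions of a read. The 90 peaks of 10 or more family reads in the control held 43.7% of the family's reads, and the 102 such peaks with the mimic held 43.6%. In these peaks, chosen by their miR-30 reads, miR-30 was usually the main miRNA. Its median share of the peak's chimeric reads was 82.6% in the control and 76.2% with the mimic. Other families had high medians too in peaks with 10 or more of their own reads. These were 79.6% and 76.2% for let-7, 72.8% and 72.5% for miR-26, and 67.8% and 68.5% for miR-27. In the peaks under 1 read miR-30 was a minor miRNA, with medians of 8.01% and 6.67%.

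Peaks that held all members also held many of the reads. A peak with few reads can seldom show 5 members, so this link was in part fixed by the counts. How reads were divided between members of near-identical sequence was not given. All 5 members were present in 106 peaks of the control, 4.53% of its miR-30 peaks, which held 39.9% of the reads. The mimic had 110 such peaks, 4.33%, with 37.9% of the reads. A single member was present in 58.9% and 57.4% of the peaks, with 16.6% and 15.0% of the reads. miR-30b-5p and miR-30c-5p shared 385 peaks in the control, 56.0% of the miR-30b-5p peaks and 34.9% of the miR-30c-5p peaks.

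The strong peaks were found again in the other library and the faint ones often were not. Of the control peaks, 1045 of 2341 (44.6%, 42.6% to 46.7%) overlapped a miR-30 peak of the mimic by at least 1 nucleotide on the same strand. The share was 28.1% for peaks under 1 read, 47.7% from 1 to under 3, 81.0% from 3 to under 10, and 90 of 90 peaks of 10 reads or more (lower limit 96.0%). Counted from the mimic, 97 of 102 peaks of 10 reads or more overlapped a miR-30 peak of the control. The same shares were not computed over the peaks of all seed families, so they do not set miR-30 apart.

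Nearly all miR-30 reads lay on nuclear transcripts. The mitochondrial chromosome held 2.01% (1.68% to 2.40%) of the family's reads in the control and 1.90% (1.58% to 2.25%) with the mimic. All other miRNAs had 14.0% and 13.7% of their reads there, and the let-7 family 37.8% and 34.1%. These shares of miR-30 were not unusual among seed families, of which 37 of 105 in the control and 28 of 105 with the mimic had a lower one. The Rn18s-rs5 locus of ribosomal RNA on chromosome 17, whose near-identical copies cannot be told apart by short reads, held 431 and 464 miR-30 reads. That was 7.01% and 6.93% of the family's reads, beside 6.70% and 6.39% of those of all other miRNAs. Ttn, the gene of the giant sarcomere protein titin, held 3.59% and 4.54% of the family's reads, against 7.64% and 9.21% for all other miRNAs.

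Strong miR-30 targets carried the seed match far more often than other transcripts. Matches were sought in the longest GENCODE vM1 transcript of each gene, preferring those with an annotated 3′ untranslated region, by gene name or synonym, and 3597 of 20311 coding transcripts (17.7%) held TGTTTAC on the transcript strand. Of the genes with 10 or more miR-30 reads, 69 of 87 held it in the control (79.3%, 69.3% to 87.3%) and 74 of 92 with the mimic (80.4%, 70.9% to 88.0%). The share was 73.7% and 69.8% for genes with 3 to under 10 reads and 37.1% and 40.04% for genes under 3 reads. Genes with no miR-30 read but at least 10 reads of other miRNAs held the match in 19.4% and 18.5% of cases. Transcript length differed between these classes as well, with a median of 4388 and 4417 bases for genes with 10 or more miR-30 reads against 3662.5 and 3663 bases for the last class. Per kilobase the matches numbered 0.174 and 0.196 in the first class and 0.0546 and 0.0524 in the last.

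**Figure D2:**
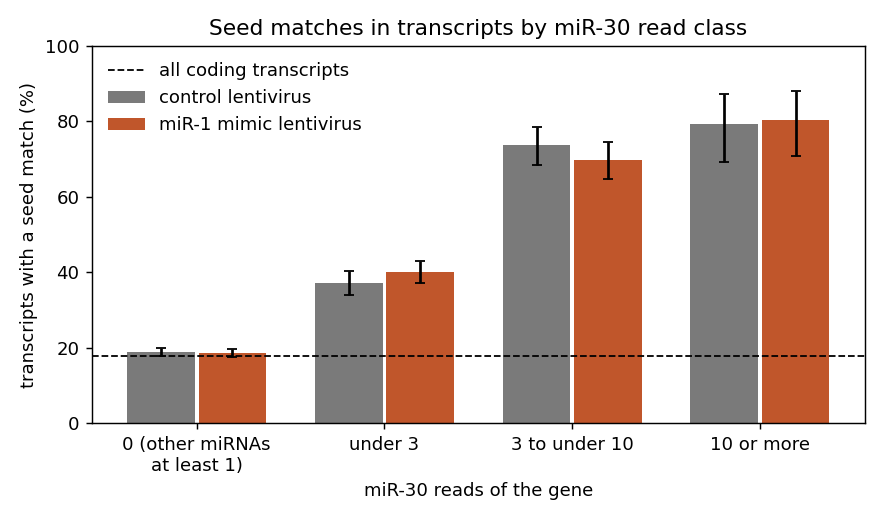
Share of transcripts that hold the miR-30 seed match (vertical axis, percent) for genes grouped by their miR-30 reads (horizontal axis) in each library, with exact binomial intervals as error bars and the share over all coding transcripts as a dashed line. The share was 18.9% and 18.5% for genes with no miR-30 read but at least 1 read of another miRNA, and 79.3% and 80.4% for genes with 10 or more.

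The miR-30 letters were less frequent among the strong targets of the 3 families compared, a difference that was described and not tested. Of the strong miR-26 targets, 40.4% in the control and 36.3% with the mimic held the miR-30 letters. For strong miR-27 targets the shares were 24.4% and 29.1%, and for strong let-7 targets 27.3% and 25.7%. Conversely, strong miR-30 targets held the miR-26 letters TACTTGA in 24.1% and 22.8% of cases, the miR-27 letters ACTGTGA in 40.2% and 35.9%, and the let-7 letters CTACCTC in 26.4% and 23.9%. Over all coding transcripts these letters were found in 13.4%, 29.7% and 20.4%. The strong targets of the other families held their own letters in 51.5% and 53.2% of cases for miR-26, 66.4% and 67.9% for miR-27, and 63.1% and 63.02% for let-7. A match anywhere in a transcript does not show that the peak covers it, and no match says only that the letters were absent from that transcript.

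Where a transcript held a single match in its 3′ untranslated region, the peak usually lay at a similar distance from the 3′ end. Among the 69 genes with at least 10 miR-30 reads in each library, 62 had a transcript of that name, of which 34 held 1 match, 18 held several and 10 held none. Of the single matches 20 lay in the 3′ untranslated region and 14 in the coding sequence, and 27 of 34 were followed by an A, the base that Ago2 favours opposite the first base of the miRNA. How often an A follows these letters over all coding transcripts was not counted. For 16 of the 20 genes the distance of the match from the transcript's 3′ end and the distance of the highest peak's centre from the gene's 3′ end differed by at most 50 bases, in both libraries. The distances were measured in separate annotations, with a median difference of 11.3 bases in the control and 7.50 with the mimic. The exceptions in both libraries were Camk2d, Ahnak, Vdac1 and Arid5b.

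Peaks of miR-30 were not confined to 3′ ends. In coding genes, 40.3% (29.2% to 52.1%) of the control peaks and 38.6% (28.4% to 49.6%) of the mimic peaks with 10 or more miR-30 reads lay within 2000 bases of the gene's 3′ end. Peaks without miR-30 but with 10 or more reads of other miRNAs had 35.01% and 36.1% there, within the intervals of these miR-30 shares. The more numerous peaks with 3 to under 10 miR-30 reads had higher shares, 47.5% (42.02% to 53.1%) and 45.6% (40.2% to 50.9%), whose intervals lay above the shares of the peaks without miR-30. Sarcomere genes with a single match in the coding sequence, Mybpc1 and Xirp2, were among the strongest targets.

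The members in the highest peak differed between genes, and their shares correlated between the libraries. Over 62 genes with at least 10 reads in each library, the share of miR-30b-5p and miR-30c-5p in the highest peak ranged widely around a median of 53.1% in the control and 45.0% with the mimic. Across these genes, which are not independent replicates and share the same 2 libraries, the share correlated between the libraries with Pearson's r of 0.729. The highest peak was picked in each library by itself and was not always the same site. At Neb it lay at chr2:52258164-52258201 in the control and chr2:52293641-52293725 with the mimic, with shares of 85.2% and 7.99%. Both members together held over 75% in both libraries at genes that included Ahnak, Coq8a, Ccn2, Gigyf1, Taok1 and Auh. They held under 25% in both at Ccdc71l, Myh4, Fam120a and Snx18. At Actc1, the cardiac actin gene that growing skeletal muscle expresses again, they held 22.8% and 26.5% of 60.8 and 77.7 reads.

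**Figure D3:**
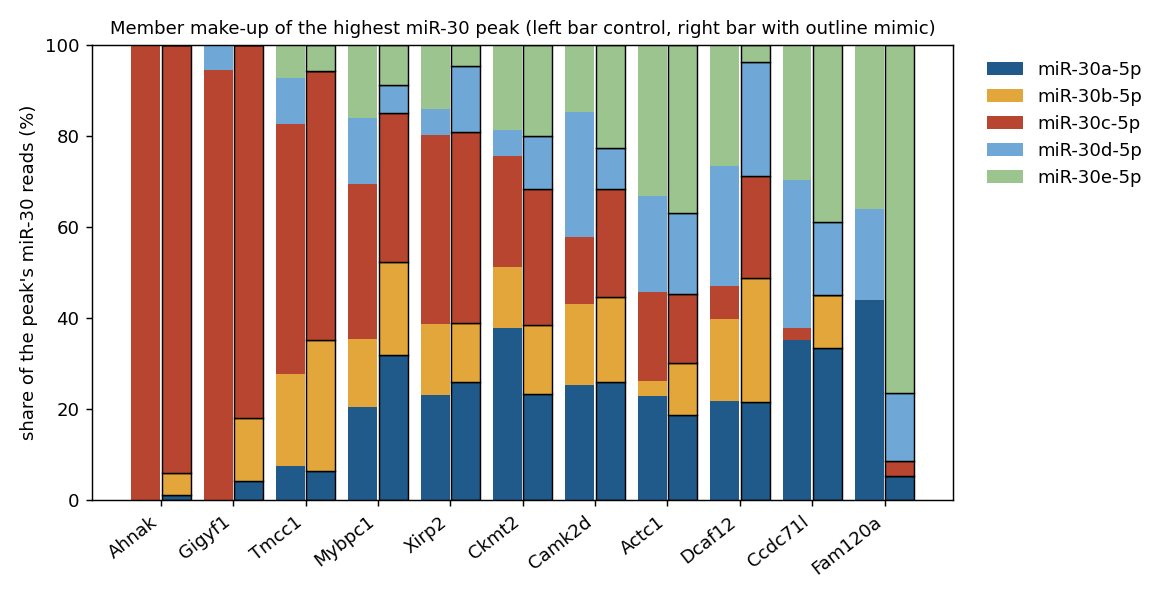
Share of each miR-30 member (vertical axis, percent of the peak's miR-30 reads) in the highest peak of selected genes with 1 seed match, in the control (left bars) and the mimic (right bars, outlined). Ahnak and Gigyf1 were taken by miR-30c-5p, and Ccdc71l and Fam120a held little of either.

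Some single matches were preceded by letters complementary to the 3′ part of the member found on the gene. Whether such letters pair, or lie under the peak, was not tested. For each single match, the longest unbroken run of Watson-Crick pairs was computed between base 9 onward of the miRNA and the 22 bases before the match. The stretches below are transcript letters from GENCODE vM1, with the seed match and the run in capitals.
Gigyf1: catcccctCTGAGAGTGgccaaTGTTTACa
Ahnak: tgcattgaacGCTGAGAGctcgTGTTTACt
Tmcc1: ctacaaGAGAGTtgagtgaatcTGTTTACa
The partner is miR-30c-5p, shown with the bases complementary to Gigyf1 and then to Ahnak in capitals beside the seed.
at Gigyf1: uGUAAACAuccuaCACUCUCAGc
at Ahnak: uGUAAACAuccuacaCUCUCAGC
Gigyf1, whose protein acts in translational repression, could pair with miR-30c-5p over 9 bases (positions 14 to 22 of the miRNA), against 3 bases for miR-30a-5p and for miR-30e-5p. Its peak lay at chr5:137527656-137527734 in the control and chr5:137527622-137527739 with the mimic, where miR-30c-5p gave 17.2 of 18.2 family reads in the control and 17.7 of 21.6 with the mimic. Ahnak, a very large scaffold protein, held a stretch complementary to 8 bases at the 3′ end of the miRNA. This match lay 541 bases from the transcript's 3′ end and the peak 58274.5 bases from the gene's 3′ end, so the peak was not shown to cover it. At chr19:9018621-9018700 in the control and chr19:9018617-9018704 with the mimic, miR-30c-5p gave all 26.5 family reads in the control and 39.4 of 41.9 with the mimic. At Tmcc1 the run was 6 bases and miR-30c-5p held 54.8% and 59.1%.

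The reverse was seen at Ccdc71l, where miR-30a-5p had the longer run of 7 bases.
Ccdc71l: acttatgtcaatgtCAGTCGAaTGTTTACa
miR-30a-5p: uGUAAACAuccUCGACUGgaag
miR-30a-5p, miR-30d-5p and miR-30e-5p gave 12.9, 11.9 and 10.9 reads there in the control and 14.5, 6.94 and 16.8 with the mimic. miR-30c-5p gave 1 read and 0 reads, where a count of 0 allows up to 3.

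Grouped by this difference, the median shares of miR-30c-5p stood in the order of the runs. In the 6 genes where the run of miR-30c-5p was at least 2 bases longer than the longer run of miR-30a-5p and miR-30e-5p, its median share of the peak was 51.1% in the control and 53.5% with the mimic. In the 22 genes within 1 base it was 32.0% and 24.2%, and in the 6 genes where it was at least 2 bases shorter than that longer run it was 13.2% and 15.3%. The groups overlapped, since the first spanned 34.1% to 100% in the control and the second 0% to 53.8%. The first group included Ahnak and the last Arid5b, whose peaks and matches lay at unlike distances from the 3′ end. For matches in the coding sequence this distance was not compared. The grouping was made after the values of the strongest sites had been seen, the run of miR-30b-5p and miR-30d-5p was not computed, and no test was made.

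**Figure D4:**
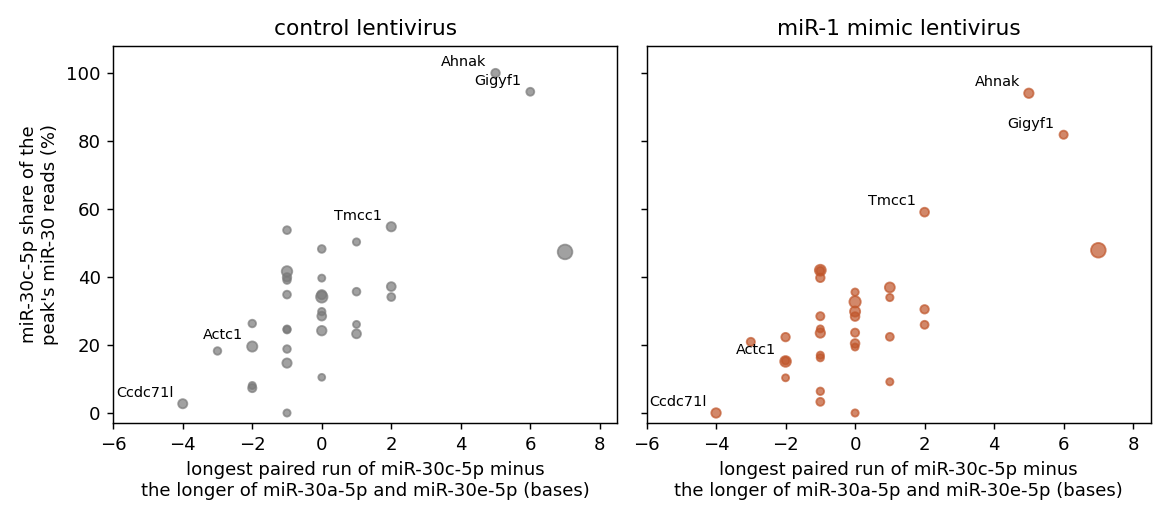
Share of miR-30c-5p in the highest miR-30 peak (vertical axis, percent) against the run of miR-30c-5p minus the longer run of miR-30a-5p and miR-30e-5p (horizontal axis, bases) for 34 genes with 1 seed match. Each point is a gene, larger with more reads, and Gigyf1, Ahnak and Tmcc1 lay to the right in both libraries while Ccdc71l lay at the lower left.

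Genes named as miR-30 targets elsewhere were drawn up as a list. It was chosen with earlier results of these data known, so its shares are not an independent check. Of its 52 genes, 27 had a miR-30 peak in the control and 32 with the mimic, which was 71.1% and 82.1% of the listed genes with any chimeric read. Over all genes with a chimeric read the shares were 21.7% (1440 of 6634) and 22.2% (1535 of 6916), and these shares were not compared at equal read depth. On the list miR-30 made up 18.9% (16.7% to 21.2%) and 18.4% (16.3% to 20.8%) of all chimeric reads on them, against 2.62% and 2.57% over all genes. Camk2d, a calcium/calmodulin-dependent kinase, had 39.5 and 42.4 miR-30 reads. Gnai2, an inhibitory G protein subunit, had 20.6 and 21.1, and the family held 58.6% and 52.9% of its chimeric reads. Ccn2 (connective tissue growth factor) had 29.6 and 16.3 reads, and Lox, which crosslinks collagen, had 16.9 and 13.4. Socs3, an inhibitor of cytokine signalling, had 13.8 and 8.01 reads, and Lifr, a cytokine receptor, had 12.2 and 12.9. The 5 listed genes with at least 10 reads in each library had a median scaled log2 ratio of -0.12, beside -0.05 over all 69 such genes.

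Ccn2 was occupied by miR-30c-5p. Its highest peak at chr10:24598569-24598659 held 23.4 family reads in the control, all of miR-30c-5p, and the peak at chr10:24598544-24598658 with the mimic held 13.7 with 12.7 of miR-30c-5p. No TGTTTAC was found in its longest transcript.

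Sarcomere genes gave many miR-30 reads but a small share of their own. Of 40 genes, 30 had a miR-30 peak in the control and 33 with the mimic, 75% and 82.5% of those with a chimeric read. Over all genes with a chimeric read it was 21.7% and 22.2%. Neither here nor for the lists below were these shares compared at equal read depth. The family held 1.44% and 1.54% of the chimeric reads on the list. Mybpc1, the slow form of myosin-binding protein C, had 126 reads in the control (105 to 150) and 150 with the mimic (127 to 176), 23.8% and 19.9% of its chimeric reads. Neb, which encodes the thin filament ruler nebulin, had 91.8 and 121 reads, and Xirp2, an actin-binding protein of the intercalated disc and myotendinous junction, had 73.4 and 89.6. Synpo2, a Z-disc protein outside the list, had 85.0 and 88.9. The counts of 6 sarcomere genes with at least 10 reads in each library had a median scaled log2 ratio of 0.16, beside -0.05 over all 69 genes. Read counts were not divided by transcript length, so they say how often a transcript was captured with miR-30 and do not compare levels of sites.

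Calcium handling and energy genes were each led by a single gene. Of 29 calcium and excitation genes, 13 and 16 had a miR-30 peak, and Camk2d led. This was 44.8% and 57.1% of those with a chimeric read, beside 21.7% and 22.2% over all genes. The calcium channel subunit Cacnb1 had 7.06 and 14.7 reads, the calcineurin subunit Ppp3cb had 5.67 and 9.14, and the calcium pump Atp2a1 had 10.3 and 7.88. Of 25 energy genes, 17 and 18 had a miR-30 peak. This was 73.9% and 72% of those with a chimeric read, beside the same 21.7% and 22.2%. Ckmt2, the mitochondrial creatine kinase of sarcomeric muscle, had 43.9 reads in the control (32.0 to 59.1) and 59.8 with the mimic (45.8 to 77.2), and miR-30 held 56.3% and 51.5% of its chimeric reads. Its cytosolic counterpart Ckm had 9.96 and 22.02 miR-30 reads, 0.608% and 1.11% of its chimeric reads. Gpi1, a glycolytic isomerase, had 12.3 and 13.4, and the adenylate kinase Ak1 had 7.37 and 12.0.

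Matrix genes gave miR-30 a small share of their chimeric reads. Of 36 genes, 18 and 19 had a miR-30 peak. This was 51.4% and 52.8% of those with a chimeric read, beside 21.7% and 22.2% over all genes. The family held 0.777% and 0.720% of the list's chimeric reads, below its share over all genes. Col1a1, the main fibrillar collagen, had 27.9 and 21.8 reads, which was 1.53% and 1.15% of its chimeric reads. Col3a1 had 12.0 and 4.66 reads, and the basement membrane gene Nid1 had 5.27 and 8.07. The median scaled log2 ratio of Lox and Col1a1, the 2 listed genes with at least 10 reads in each library, was -0.50. The 7 fibroblast markers had 42.3 and 31.4 miR-30 reads, and their part in these values was not tested.

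Among 42 genes of growth and protein breakdown, 10 had a miR-30 peak in the control and 17 with the mimic. Of the listed genes with a chimeric read this was 27.8% and 42.5%, beside 21.7% and 22.2% over all genes. The control share was thus near that over all genes. The family held 4.98% (4.03% to 6.14%) and 6.46% (5.34% to 7.71%) of the chimeric reads on the listed genes. Nedd4, a HECT-type ubiquitin ligase, led with 50.4 reads in the control (37.1 to 65.9) and 57.5 with the mimic (43.2 to 73.9). The insulin receptor substrate Irs1 had 8.62 and 7.81, the ubiquitin ligase Cblb had 6.57 and 5.24, and the phosphoinositide kinase subunit Pik3r1 had 3.73 and 7.82. These 3 genes stood within counting error of each other in both libraries.

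The miRNA machinery was targeted with few reads. Of 16 silencing genes, 7 had a miR-30 peak in each library. This was 63.6% of those with a chimeric read, beside 21.7% and 22.2% over all genes. The family held 5.11% and 3.99% of the chimeric reads on the silencing genes. Tnrc6a, the scaffold that joins Argonaute to the deadenylases, had 6.83 and 10.5 reads. Its paralogue Tnrc6b had 5.41 and 7.06. Dicer1, which cuts miRNA precursors, had 5.50 and 0.908, and Ago2 had 3.55 and 0, where a count of 0 allows up to 3.

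The strong miR-30 peaks stood at similar heights in both libraries. In 991 peaks shared by the libraries the log2 ratio (mimic over control) had a median of 0.04 (0.00 to 0.14), with an SD of 2.23 over peaks. In the 282 peaks with at least 3 reads in both it was 0.12 (0.02 to 0.19) with an SD of 0.69, against 0.09 over 6432 such peaks of all seed families. After division by the library totals these medians were -0.11 and -0.03 for miR-30, and -0.09 and -0.07 for all seed families. At least a 2-fold difference after scaling was found in 45 of 282 peaks, 25 higher and 20 lower, or 16.0%, where 15.5% of the peaks of all seed families passed (6.73% higher and 8.77% lower).

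Few target genes with at least 10 miR-30 reads in each library differed between the libraries. Genes with many reads in only 1 library were left out by this rule. Of the 69 genes with at least 10 miR-30 reads in each library, 1 was at least 2-fold higher and 1 at least 2-fold lower after scaling, together 2.90%. Over the genes of all seed families, 5% passed this fold, 2.39% higher and 2.61% lower, so the miR-30 count was no more than the background. At 1.5-fold, 4 genes were higher and 4 lower, 11.6% against 22.6% in the background (9.74% higher and 12.8% lower). Without scaling 1 gene passed 2-fold, against 5.27% (4.04% higher and 1.22% lower), and of 28 genes with at least 20 reads 0 passed, against 3.24% (1.41% higher and 1.84% lower). For 4 of the 69 genes the counting interval of the ratio excluded the ratio of all reads. Coq8a and Ttn were on the higher side and Ccn2 was among those on the lower side. Among many genes, some such intervals exclude that ratio by counting error alone. The same count was not made over the genes of all seed families. Whether 4 of 69 is more than counting error gives was therefore not tested.

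**Figure D5:**
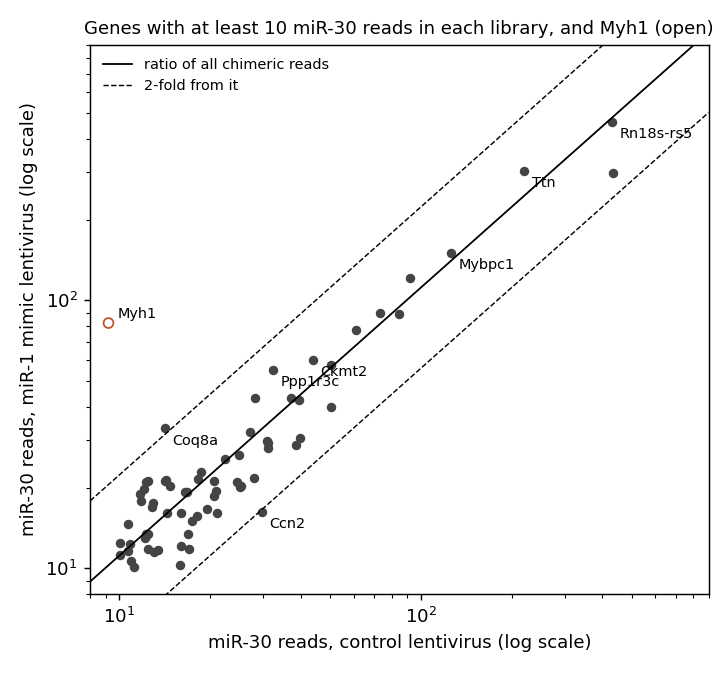
miR-30 reads per gene in the control (horizontal axis) and the mimic (vertical axis), both on log scales, for 69 genes with at least 10 reads in each library and for Myh1 (open circle). The solid line is the ratio of all chimeric reads and the dashed lines lie 2-fold from it, and most genes lay between them, with Coq8a just above and Ccn2 just below.

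Coq8a, a kinase-like protein of coenzyme Q synthesis, had 14.1 miR-30 reads in the control (7.65 to 23.5) and 33.3 with the mimic (22.7 to 46.3), a ratio of 2.36 (1.23 to 4.77). Other miRNAs on Coq8a gave 0.879. Its site lay at chr1:180192326-180192468 in the control and chr1:180192312-180192463 with the mimic, 27159 and 27149.5 bases from the gene's 3′ end, and was taken by miR-30b-5p and miR-30c-5p. No seed match was found in its longest transcript. For Ccn2 the ratio was 0.549 (0.272 to 1.010), with 0.639 for all other miRNAs.

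Ttn had 221 and 304 miR-30 reads, a ratio of 1.38 (1.15 to 1.64), beside 1.35 for all other miRNAs on that gene. Part of the difference lay in mimic peaks at chr2:76727391-76727433 and chr2:76729140-76729181, with 22.4 and 15.8 miR-30 reads. The control had no peak of any miRNA at these places. Ttn is itself among the 10 markers of muscle fibres, whose reads of all miRNAs were 38167 and 49789. Of these Ttn gave 17514 and 23568.5, and Myh1, also a marker, gave 6380 and 11358.5. The marker total is therefore not separate from Ttn, and what part fibre markers had in the ratio was not tested.

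The other genes with the largest differences were within counting error of the depth ratio. Ppp1r3c, which targets a phosphatase to glycogen, had 32.4 and 55.1 reads, a ratio of 1.70 (1.09 to 2.75). The glycogen-binding gene Stbd1 had 12.3 and 20.9, the tyrosine phosphatase gene Ptpn4 had 12.5 and 21.2, and Cand2, a cullin regulator of muscle, had 12.1 and 19.7. On the lower side Phtf2 had 15.9 and 10.3, the clathrin adaptor gene Ap2b1 had 17.1 and 11.8, and the RNA helicase gene Ddx5 had 38.4 and 28.9.

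Myh1, the fast myosin heavy chain of type IIx fibres, was outside the set of 69 and was singled out after its values were seen. It had 9.20 miR-30 reads in the control (4.12 to 17.1) and 82.3 with the mimic (65.2 to 102), a ratio of 8.94 (4.57 to 20.6), while all other miRNAs on Myh1 had a ratio of 1.77. Most of the difference lay in adjoining mimic peaks at chr11:67205531-67205548 and chr11:67205549-67205576, with 20.4 and 43.1 miR-30 reads. These were 2 of the 5 mimic peaks with 10 or more miR-30 reads that no miR-30 peak of the control overlapped, and the control had no peak of any miRNA there. The same peaks held 80.5 and 135 reads of 56 and 58 miRNAs, so miR-30 was 25.3% and 31.9% of them. The Myh1 transcript held no seed match, and reads of the near-identical myosin genes Myh1, Myh2, Myh4 and Myh8 can be assigned to the wrong copy. Of these, Myh4 had 24.5 and 21.1 miR-30 reads and Myh2 had 3.05 and 1.65.

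The mitochondrial peaks of miR-30 held no seed match. Of 23 such peaks in the control and 25 with the mimic, 0 contained TGTTTAC on their strand, where a count of 0 allows up to 13.0% and 12.0%. The letters occur only 3 times on both strands of the mitochondrial chromosome, and 0 of 15 and 0 of 12 mitochondrial peaks without miR-30 held them. The highest counts there were on mt-Rnr2, the large ribosomal RNA, with 50.2 and 39.97 reads, and on ND1, a complex I subunit, with 31.1 and 29.2. On both genes miR-30 was under 1% of the chimeric reads.

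The families whose reads were spread over genes most like those of miR-30 were miR-133, miR-1 and miR-378. Across 6616 nuclear genes in the control and 6897 with the mimic, Pearson's r of log2(reads + 1) with miR-30 was 0.305 and 0.292 for miR-133a-3p with miR-133b-3p, 0.287 and 0.303 for miR-1a-3p, and 0.276 and 0.298 for miR-378a-3p. The median over the 105 families was 0.165 and 0.170. These values are across genes within a library, which share its depth and transcript levels.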

How the data were processed

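Chimeric eCLIP-seq peaks of the control and mimic libraries (1 each, MOV) were analysed. The input libraries were not analysed here. Per the methods, STAR placed the reads left after removal of adapters and repeats, duplicates from PCR were collapsed, and CLIPper called the peaks. The submitters' processing notes list UMI-tools 1.1.1, cutadapt 3.2, STAR 2.7.7a, Bowtie 1.2.3 and HOMER 4.11. The deposited values are estimated counts, the chimeric reads of 1 miRNA in 1 peak, not scaled by the authors and often fractional (17.4% whole in the control, 16.7% with the mimic, within 1e-06). How reads were shared between alike miRNAs was not given in the sources used here, so a member's count may include reads of a near-identical one.

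The labels name mm10 and the methods mm9, while 36 and 35 peaks lay beyond mm9 chromosome ends and 99.0% of peaks overlapped a GRCm38 gene. Coordinates are GRCm38, counted from 1. Genes were the same-strand RefSeq span with the largest overlap, with strand known for 27025 genes from RefSeq promoters and for 8750 by name. The strand of 14222 genes was unknown, and these took a peak of either strand where no same-strand gene overlapped it. Rn18s-rs5, Ccn2, Ago2 and ND1 were assigned in this way. Transcript letters came by name from GENCODE vM1 (mm9), and no coordinate was converted. Seed families of 659 names used the RefSeq sequence for 543 and the number and arm of the name for 23, while 93 stood as their own family. No RefSeq sequence was available for miR-30b-5p and miR-30d-5p. They were placed by number and arm, and their runs were not computed.

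Python 3.11.15, pandas 2.3.3 and scipy 1.17.1 were used. Intervals were exact (Poisson, Clopper-Pearson, conditional binomial for ratios, order statistics for medians), on reads rounded to whole numbers. The scripts were tested on simulated data. Scaling divided by library totals. Alternatives changed the minimum of reads, scaling, overlap, fold, gene assignment and seed length.

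The members and the 7 gene lists were chosen with earlier results of these data known. Named genes were the 10 nuclear genes with the most family reads, the genes of the 5 highest peaks per library, the 5 largest rises and falls, the 4 leading genes of each list and the 3 genes with the highest family share. Gigyf1, Ahnak, Tmcc1, Taok1, Auh, Myh4, Fam120a, Snx18, Vdac1, Arid5b, Socs3, Lifr, Myh1 and the mitochondrial genes were named after their values were seen. A gene that the rule picked is not reported here.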

Additional observations from a re-analysis of the deposited data

How the results depend on the processing

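No paired analysis was possible because the control and the mimic were single libraries, and miR-384-5p, planned as a further member, was not among the named miRNAs. Division by library totals turned the ratio of mimic to control below 1 for the family (0.977), miR-30c-5p (0.999), miR-30e-5p (0.984), miR-30b-5p (0.923) and miR-30d-5p (0.922), the last 2 with intervals that included 1 as counted, and moved miR-30a-5p to 1.03. Counting only peaks with 1 member gave 0.932 for miR-30c-5p and 0.777 for miR-30d-5p, and values of at least 3 reads gave 1.27 for miR-30a-5p and 0.944 for miR-30b-5p and 0.9498 for miR-30d-5p, both turned below 1. Family peaks were 3.005% and 3.45% of peaks at a minimum of 3 reads and 4.43% and 4.53% of lines, each a peak with 1 miRNA. Control peaks found again were 36.1% with 50% reciprocal overlap, 66.7% with at least 3 reads in both and 69.1% with any miRNA accepted, and 40.9% when counted from the mimic. The median log2 change at shared peaks was -0.11 after scaling. Target genes numbered 1440, 1535 and 870 (control, mimic, both), 427, 459 and 292 with at least 3 reads, and 427, 414 and 208 with at least 2 peaks. Genes past the fold numbered 8 at 1.5-fold, 1 without scaling and 0 of 28 at a minimum of 20 reads. By distinct peaks the mitochondrial share was 0.982% and 0.985%, Rn18s-rs5 0.427% and 0.551%, and Ttn 5.28% in the mimic. With at least 3 reads the lists kept, in control and mimic, 4 and 2 silencing, 18 and 20 sarcomere, 6 and 7 calcium, 10 and 9 energy, 5 and 7 matrix and 6 and 8 growth genes, and 20 published targets in the mimic. Matching seed bases 2 to 7 gave 88.5% and 90.2% of strong targets. The cause of these shifts was not tested. The other alternatives left values within the interval, or within 1.5 times for counts. With 1 library per group, variation between animals is unknown, and genes under 10 reads have intervals too wide to order them.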
